A study of Mus musculus with 6 samples.

Results

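Heterotrimeric G proteins and their RGS regulators were followed at the RNA level in Hepa1-6 cells, an established line from a mouse liver tumour, after knockdown of Crebl2. The set comprised every protein-coding gene of GENCODE M21 named as a Gna, Gnb or Gng subunit or as Rgs followed by a digit, 56 of 38481 genes in the count files. Of these, 16 encode alpha, 5 beta and 12 gamma subunits, 21 encode RGS proteins, and Rgs7bp and Rgs9bp encode membrane anchors of RGS proteins. Gnb1l shares the letters of the rule but is no beta subunit and was left out. Cells given siRNA against Crebl2, whose product is a CREB-like bZIP protein, gave 3 libraries. Another 3 libraries came from cells given siRNA against Renilla luciferase, a sequence that mouse cells lack, and are called Luc siRNA. Both groups were the same cell line in high-glucose medium with serum, transfected with the same lipid reagent and collected after 3 days, and separate cultures are not stated for the libraries of a group.

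A heterotrimeric G protein sits under a membrane-spanning receptor at the plasma membrane. The activated receptor exchanges GDP for GTP on the alpha subunit, which parts from the tightly paired beta and gamma subunits, and both then act on enzymes and channels. Gs alpha stimulates adenylyl cyclase, Gi alpha inhibits it, Gq alpha activates phospholipase C beta, and the Gna12 and Gna13 products activate RhoGEFs. RGS proteins speed GTP hydrolysis by alpha subunits and so end the signal. In liver these pathways carry the responses to glucagon, adrenaline, vasopressin and lysophospholipids.

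Total counts ran from 27082572 to 27710914 in the Crebl2 siRNA libraries and from 27385328 to 29158489 in the Luc siRNA libraries. Crebl2 itself was at 29.1, 29.8 and 32.3 counts scaled to the TMM-adjusted library size (CPM, per 1000000 counts) in Crebl2 siRNA libraries, against 114, 113 and 112 CPM in Luc siRNA libraries, so the target was lower in each library labelled with its siRNA. Of 8 hepatocyte markers, Alb was at 540 and 581 CPM, Afp at 356 and 278 CPM and Trf at 133 and 178 CPM on average in Crebl2 siRNA and Luc siRNA cells. Afp was called raised (log2 fold change 0.36, edgeR adjusted p = 9.26e-06) and Trf lowered (-0.42, edgeR adjusted p = 7.27e-05). The other hepatocyte products were near 0 despite at least 1035 unique bases each, with 106 counts for Apoa1, 39 for Ttr and 22 for Apob over the 6 libraries, while Foxa2 and Hnf4a had too few unique bases to be read. Mitochondrial genes took 0.859% of counts in Crebl2 siRNA replicate 2, against 2.09 to 2.52% in the other 5 libraries. A read was apparently counted only where it fell on bases that belong to a single transcript model, so a gene was measured through the stretch unique to its main transcript. Genes without such a stretch, Gnb1 among them, stood at 0 whatever their expression.

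The gamma subunits are short proteins whose coding sequences differ enough to be told apart. They are shown for Gng12, on which the results turn, and for Gng11 and Gng2, the best counted of the other gamma genes. Capitals mark the last 4 codons before the stop codon. They encode the C-terminal box in which a cysteine receives the lipid that holds the subunit at the membrane.
Gng12: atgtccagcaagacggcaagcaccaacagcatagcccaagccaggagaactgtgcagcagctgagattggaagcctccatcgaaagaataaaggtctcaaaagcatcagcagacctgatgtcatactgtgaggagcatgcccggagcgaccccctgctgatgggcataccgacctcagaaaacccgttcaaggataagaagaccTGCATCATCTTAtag
Gng11: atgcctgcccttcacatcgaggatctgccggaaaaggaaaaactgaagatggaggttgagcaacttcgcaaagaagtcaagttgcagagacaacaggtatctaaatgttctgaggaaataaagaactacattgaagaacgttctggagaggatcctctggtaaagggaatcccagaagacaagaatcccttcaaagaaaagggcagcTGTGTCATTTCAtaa
Gng2: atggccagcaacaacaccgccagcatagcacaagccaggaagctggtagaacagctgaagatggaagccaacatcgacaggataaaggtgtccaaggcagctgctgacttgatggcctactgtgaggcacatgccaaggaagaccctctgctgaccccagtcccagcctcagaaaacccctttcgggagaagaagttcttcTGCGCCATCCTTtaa
In a global alignment the Gng12 coding sequence shared 71.3% of 223 aligned columns with Gng2 and 55.1% of 225 with Gng11. The coding sequences lie within chr6:67015751-67017589 on the plus strand for Gng12, chr6:4004316-4008160 on the plus strand for Gng11 and chr14:19875807-19891372 on the minus strand for Gng2 (GRCm38, spliced).

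A gene was called raised or lowered in Crebl2 siRNA cells at an adjusted p under 0.05. Of the 56 genes, 23 passed the filter on low counts and 10 of those were called, 4 raised and 6 lowered. By the same rule, of all 11616 tested genes, 38.9% were called, 18.8% raised and 20.1% lowered, so 43.5% of tested members called is a share near the background. Groups did not overlap for 11 tested members, the 10 called ones and Rgs9, or 47.8%, against 48.8% of all tested genes. The median log2 fold change of tested members was -0.12, against 0.01 over all tested genes, and the median absolute log2 fold change was 0.25 against 0.21. By role, 2 alpha genes were raised and 2 lowered of 8 tested. Of the 3 tested beta genes 1 was lowered, of the 7 tested gamma genes 1 was raised and 3 were lowered, and of the 4 tested RGS genes 1 was raised. Of the 10 called, 8 changed by under 1.5-fold. Without Crebl2 siRNA replicate 2, the library with few mitochondrial counts, 9 members were called, 8 of them among the 10, with Gna12 and Gnb5 lost and Rgs9bp gained.

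**Figure D1:**
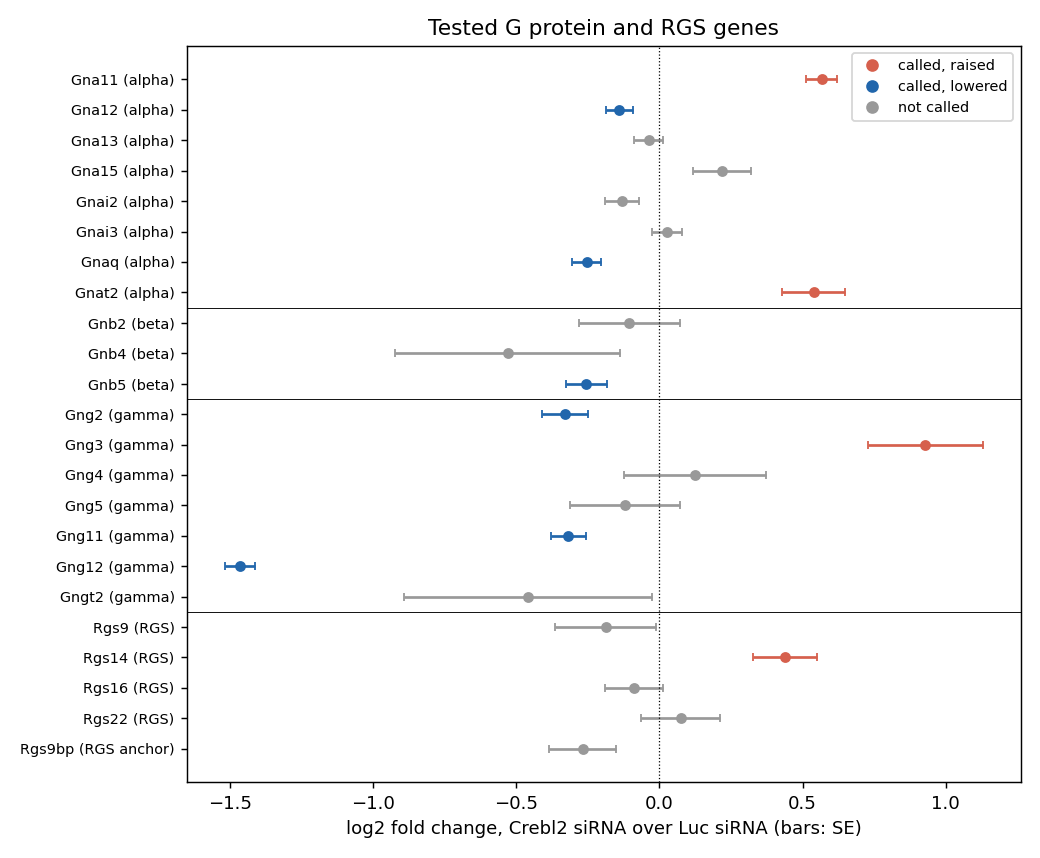
Log2 fold change of Crebl2 siRNA over Luc siRNA with its SE for the 23 tested genes, ordered by role. Red points were called raised, blue points called lowered and grey points not called. Gng12, at -1.46, lies apart from the others, which run from -0.53 to 0.93.

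Gng12 RNA fell, with the only change of at least 2-fold among the tested members. Gng12 is a widely expressed gamma subunit (ENSMUSG00000036402.13, chromosome 6, 66896397 to 67021350, plus strand). It was at 83.8, 84.5 and 88.3 CPM in Crebl2 siRNA libraries, against 243, 226 and 239 CPM in Luc siRNA libraries. The groups were far apart, with little spread within either. The log2 fold change was -1.46 (SE 0.0517; edgeR quasi-likelihood test, adjusted p = 8.17e-12), a fold of 0.362. This was the 4th smallest p of 11616 genes tested. Among the 1007 tested genes with at least as high a CPM in Luc siRNA cells, 2, Gng12 included, had a log2 fold change this low or lower. In bulk RNA, fewer cells that express a gene and less of its RNA per cell cannot be told apart.

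The Gng12 measurement rests on the 3' untranslated region. The main row, transcript Gng12-201, held 99.7% of the gene's counts, and all 2264 bases unique to it lie in its 3' UTR of 3761 bases. The transcript with the next most counts (ENSMUST00000114222.3, 441 unique bases) held 9, 6 and 10 counts in Crebl2 siRNA libraries, against 18, 15 and 16 counts in Luc siRNA libraries. Those groups did not overlap either, though the counts are few. Of the genes that overlap Gng12 on the other strand, 4930597O21Rik had 30 and 47 counts in all in Crebl2 siRNA and Luc siRNA libraries and Gm36816 had 1 and 0, far under the counts of Gng12.

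Gng11 and Gng2 fell as well, by much less. Gng11, a gamma subunit that carries a farnesyl rather than the usual geranylgeranyl lipid, was at 38.4, 36.9 and 40.4 CPM in Crebl2 siRNA libraries, against 47.0, 48.8 and 48.5 CPM in Luc siRNA libraries (log2 fold change -0.32, SE 0.0601; edgeR adjusted p = 0.000508). Gng2, a common partner of Gnb1 in biochemical work, was at 15.1, 16.4 and 16.9 CPM in Crebl2 siRNA libraries, against 21.5, 20.2 and 19.1 CPM in Luc siRNA libraries (log2 fold change -0.33, SE 0.0797; edgeR adjusted p = 0.00348). For both genes each Crebl2 siRNA library lay below every Luc siRNA library.

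Gng3, a gamma subunit of neurons, went the other way. Gng3 was at 2.04, 2.67 and 2.63 CPM in Crebl2 siRNA libraries, against 1.05, 1.33 and 1.48 CPM in Luc siRNA libraries (log2 fold change 0.93, SE 0.20; edgeR adjusted p = 0.00146). The groups did not overlap, but the values rest on 57, 74 and 73 counts in Crebl2 siRNA libraries, against 30, 37 and 40 counts in Luc siRNA libraries. Gng3 overlaps Bscl2 on the other strand, which had 46 and 29 counts in all in Crebl2 siRNA and Luc siRNA libraries (log2 fold change 0.66; edgeR adjusted p = 0.179). How strand was treated in counting is not stated, so it is not known whether reads from the overlap were counted, or for which gene. Of the 1643 exonic bases of Gng3, 1245 lie in no other deposited row. Of neuronal markers, Syp was higher in Crebl2 siRNA cells (0.827 against 0.385 CPM; log2 fold change 1.10, edgeR adjusted p = 0.0102), Rbfox3 had 0 counts and Snap25, with 118 unique bases, had 1 count in the 6 libraries. The summed level of these 3 markers was 0.793 to 0.895 CPM in Crebl2 siRNA libraries and 0.287 to 0.517 CPM in Luc siRNA libraries, and its part in the Gng3 result was not tested.

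Gng4, Gng5 and Gngt2 did not pass the test. Their log2 fold changes were 0.12 (edgeR adjusted p = 0.732), -0.12 (edgeR adjusted p = 0.66) and -0.46 (edgeR adjusted p = 0.434). Gng5 has a pseudogene copy, Gng5-ps, with which it may share reads. Gngt2, the cone photoreceptor gamma subunit, had 23, 7 and 7 counts in Crebl2 siRNA libraries, against 11, 21 and 19 counts in Luc siRNA libraries, so 1 library sets its spread. Without Crebl2 siRNA replicate 1 it was called lower (log2 fold change -1.26, edgeR adjusted p = 0.0343). Gng10 and Gng8 had 51 and 4 counts over the 6 libraries, under the filter, and Gng7, Gng13 and Gngt1 had 0.

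**Figure D2:**
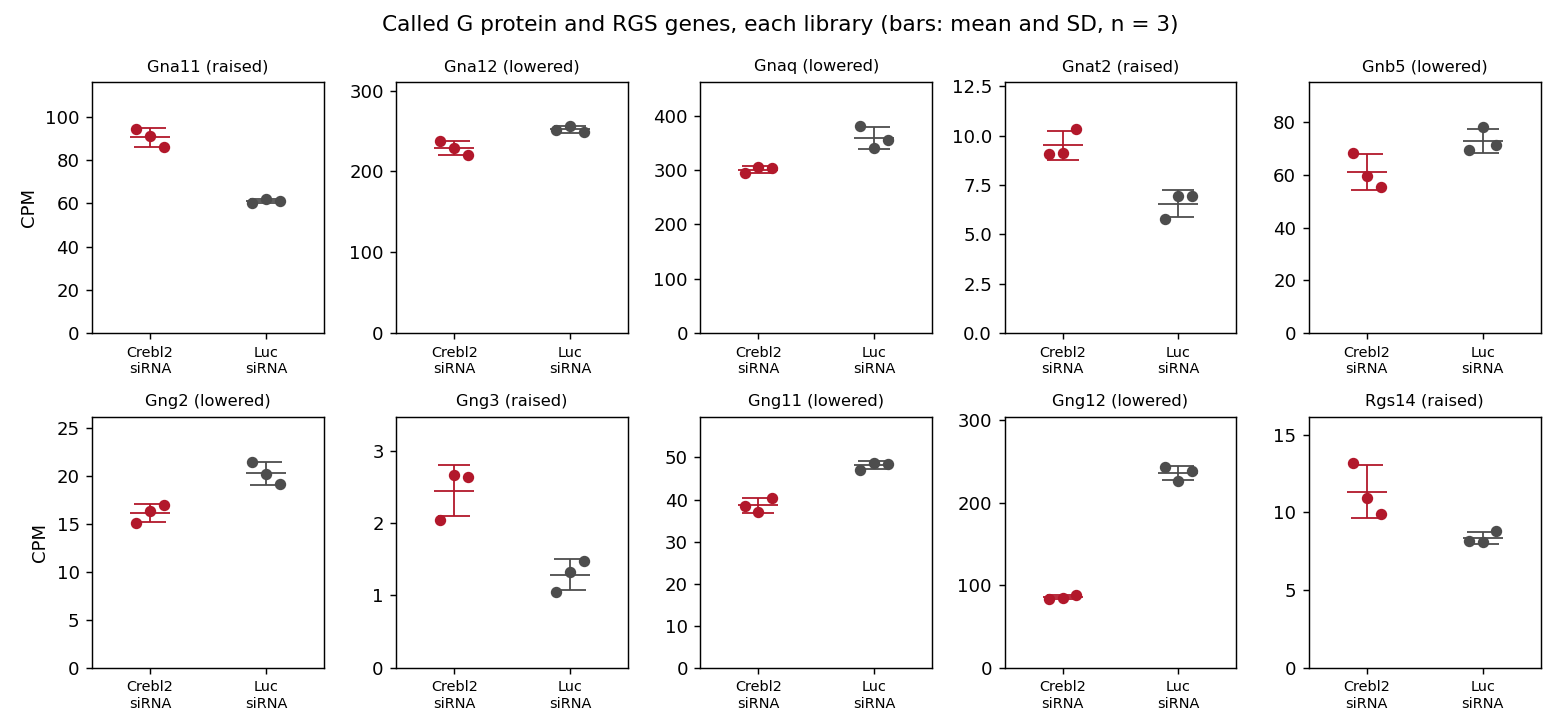
Abundance in CPM (linear axes from 0) of the 10 called genes in each library, Crebl2 siRNA (red) left of Luc siRNA (grey). Points are libraries and bars give the mean and SD (n = 3 each). No gene has overlapping groups, and Gng12 has by far the widest gap, at 85.6 against 236 CPM on average.

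Relative to most of the other gamma subunits, Gng12 was lower in Crebl2 siRNA libraries. These ratios reuse the counts behind the fold changes above, so they are no separate support. Within each library the log2 ratio of Gng12 counts to the summed counts of the other 11 gamma genes was 0.48, 0.51 and 0.47 in Crebl2 siRNA libraries, against 1.74, 1.60 and 1.70 in Luc siRNA libraries. The difference was -1.19 (SDs 0.0202 and 0.0748, n = 3 each; exact two-sided permutation test, p = 0.1, the smallest that 3 against 3 libraries allow). Such a ratio needs no scaling between libraries, but Gng12 was set as its numerator with earlier results of these data known. Against single gamma genes the difference was -1.13 for Gng2, -1.15 for Gng11, -1.36 for Gng5, -1.58 for Gng4 and -2.40 for Gng3. Each of these 5 pairs had groups that did not overlap (exact permutation p = 0.1, Benjamini-Hochberg adjusted p = 0.12 over 6 pairs). Against Gngt2 the difference was -0.81 and the groups overlapped (exact permutation p = 0.5).

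Of the 7 tested gamma genes, as far as their unique bases were counted, Gng11 had the highest level in Crebl2 siRNA cells and Gng12 in Luc siRNA cells. Expressed as CPM per kilobase unique to the main transcript, a scale on which genes can be set side by side, Gng12 was at 37.7 ± 1.06 in Crebl2 siRNA cells and 104 ± 3.83 in Luc siRNA cells (SD, n = 3 each). Gng11 was at 42.0 ± 1.91 in Crebl2 siRNA cells and 52.3 ± 1.03 in Luc siRNA cells on the same scale. Of the level summed over the 7 tested gamma genes, Gng12 made up 42.3, 43.3 and 42.3% in Crebl2 siRNA libraries, against 63.9, 61.4 and 62.9% in Luc siRNA libraries. Gng11 made up 48.0, 46.7 and 47.9% in Crebl2 siRNA libraries, against 30.5, 32.6 and 31.6% in Luc siRNA libraries, a higher share although its own level fell. Gng2 came next with 5.74 ± 0.264% in Crebl2 siRNA cells and 3.85 ± 0.224% in Luc siRNA cells (SD, n = 3 each). Gng5 enters these sums through a transcript with 1934 unique bases, while its other counted transcripts, of 593 bases each, have 238 and 107. RNA of those shorter transcripts may be missed, so the order and shares describe only what was counted. Gng10, which did not reach the count filter, is not in these sums. Its level, read from 246 of 1192 exonic bases, was 1.32 and 1.17 CPM per unique kilobase in Crebl2 siRNA and Luc siRNA cells. Gng7 had no count, with at most 146 unique bases in any row.

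**Figure D3:**
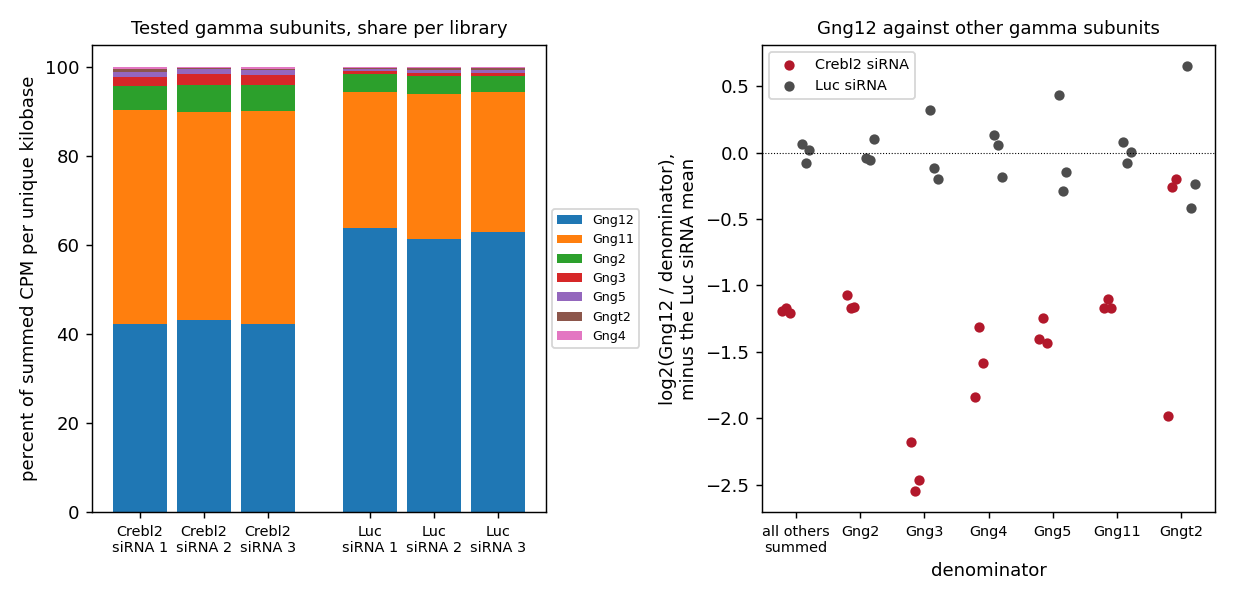
Left, share in percent of each tested gamma gene in the summed CPM per unique kilobase, one bar per library, Crebl2 siRNA left of Luc siRNA. Right, log2 ratio of Gng12 counts to each denominator in each library (points), set to 0 at the Luc siRNA mean. Gng12 makes up 42.3 to 43.3% in Crebl2 siRNA libraries and 61.4 to 63.9% in Luc siRNA libraries, and only the ratio to Gngt2 has overlapping groups.

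Among alpha subunits, the Gq family pair Gna11 and Gnaq moved in opposite directions. Both products activate phospholipase C beta. Gna11 was at 94.6, 91.0 and 85.9 CPM in Crebl2 siRNA libraries, against 60.0, 62.1 and 61.2 CPM in Luc siRNA libraries (log2 fold change 0.57, SE 0.0555; edgeR adjusted p = 6.59e-07). Gnaq was at 294, 306 and 304 CPM in Crebl2 siRNA libraries, against 380.4, 341 and 355 CPM in Luc siRNA libraries (log2 fold change -0.25, SE 0.0506; edgeR adjusted p = 0.000819). Neither gene had overlapping groups. The within-library log2 ratio of Gna11 to Gnaq, chosen after the values were seen, was -1.63, -1.75 and -1.82 in Crebl2 siRNA libraries, against -2.66, -2.46 and -2.53 in Luc siRNA libraries, a difference of 0.82 (exact permutation p = 0.1, the smallest possible). With the groups of each gene apart in opposite directions, the ratio had to separate, so its p adds no support. Per unique kilobase Gna11 stayed below Gnaq in both groups, at 26.5 ± 1.29 and 53.3 ± 1.12 CPM in Crebl2 siRNA cells and 17.9 ± 0.306 and 63.6 ± 3.56 CPM in Luc siRNA cells (SD, n = 3 each). Gna15, a promiscuous Gq family member of blood cells that lies beside Gna11 on chromosome 10, did not pass the test (log2 fold change 0.22, edgeR adjusted p = 0.0996). Gna14 had 6 and 7 counts in all in Crebl2 siRNA and Luc siRNA libraries.

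Of Gnai2, Gnai3, Gna12 and Gna13, the tested inhibitory and G12 family genes outside the transducins, Gna12 was called. Gnai3 was at 415, 428 and 476 CPM in Crebl2 siRNA libraries, against 439, 432 and 424 CPM in Luc siRNA libraries, with overlapping groups (log2 fold change 0.03, SE 0.0534; edgeR adjusted p = 0.733). For Gnai2 the log2 fold change was -0.13 ± 0.0584 (SE), with an edgeR adjusted p of 0.0893, and for Gna13 -0.04 ± 0.0503 (SE), with an edgeR adjusted p of 0.603. Gna12 was called lower, at 237, 229.5 and 220.0 CPM in Crebl2 siRNA libraries, against 251, 257 and 249 CPM in Luc siRNA libraries (log2 fold change -0.14, SE 0.0481; edgeR adjusted p = 0.03). That call was lost in 7 of 14 alternative settings, among them the removal of any library other than Crebl2 siRNA replicate 1. Gnai1, another Gi alpha, had 0 counts in each Crebl2 siRNA library, where 0 allows up to 3 counts, against 4, 2 and 3 counts in Luc siRNA libraries. It did not reach the filter, and was called lower where no filter was applied.

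Gnat2, the alpha transducin of cones and a member of the Gi family, rose, at a low level. Gnat2 was at 9.06, 9.11 and 10.3 CPM in Crebl2 siRNA libraries, against 5.75, 6.95 and 6.94 CPM in Luc siRNA libraries (log2 fold change 0.54, SE 0.11; edgeR adjusted p = 0.000988), and the groups did not overlap. Its rod counterpart Gnat1 had 9, 3 and 5 counts in Crebl2 siRNA libraries, against 1, 2 and 3 counts in Luc siRNA libraries. Of photoreceptor markers, Pde6b had 5 and 9 counts and Sag had 11 and 30 counts in all in Crebl2 siRNA and Luc siRNA libraries, near 0 in both groups, and their part in the Gnat2 result was not tested.

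Per unique kilobase the alpha genes kept 1 order for their leading members. In Crebl2 siRNA cells Gnai2 stood at 261 ± 18.3, Gnai3 at 135 ± 9.83, Gna12 at 67.0 ± 2.50 and Gnaq at 53.3 ± 1.12 CPM per kilobase (SD, n = 3 each). In Luc siRNA cells they stood at 286 ± 10.7, 132 ± 2.38, 73.8 ± 1.19 and 63.6 ± 3.56 CPM per kilobase (SD, n = 3 each). In neither group did the libraries of neighbours in that order overlap. The Gnai2 level rests on 413 of its 2215 exonic bases. Gnas, which encodes Gs alpha, was hardly measured, with 25 counts that all fell on 1 of 14 transcript rows at a locus with many overlapping models. Gnal, the olfactory Gs family member, had 0 counts although one row has 2363 unique bases.

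Of the beta subunits, Gnb5 fell and the common ones could hardly be measured. Gnb5, the atypical beta subunit that pairs with RGS proteins of the Rgs6, Rgs7, Rgs9 and Rgs11 group, was at 68.5, 59.4 and 55.5 CPM in Crebl2 siRNA libraries, against 69.4, 78.1 and 71.2 CPM in Luc siRNA libraries (log2 fold change -0.25, SE 0.0729; edgeR adjusted p = 0.0107). The groups nearly met. The call was lost without Luc siRNA replicate 2 (log2 fold change -0.21, edgeR adjusted p = 0.0709) and without Crebl2 siRNA replicate 2 (log2 fold change -0.23, edgeR adjusted p = 0.0555). For Gnb2, at 2.65 and 2.85 CPM on average in Crebl2 siRNA and Luc siRNA cells, the log2 fold change was -0.11 ± 0.176 (SE), with an edgeR adjusted p of 0.675. For Gnb4, at 0.372 and 0.538 CPM, it was -0.53 ± 0.394 (SE), with an edgeR adjusted p of 0.312. Gnb1, the most general beta subunit, had 0 counts and at most 3 unique bases in any row, and Gnb3 had 9 counts in all.

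Rgs14 was the only RGS gene called. Rgs14, which acts on Gi alpha and also binds inactive Gi alpha through a second motif, was at 13.2, 11.0 and 9.88 CPM in Crebl2 siRNA libraries, against 8.17, 8.10 and 8.82 CPM in Luc siRNA libraries (log2 fold change 0.44, SE 0.111; edgeR adjusted p = 0.00468). The groups did not overlap, and the Crebl2 siRNA libraries spread more widely. Rgs16, a Gi and Gq regulator known as a fasting-responsive gene in mouse liver, was at 8.63, 9.33 and 8.62 CPM in Crebl2 siRNA libraries, against 8.42, 9.85 and 10.0 CPM in Luc siRNA libraries (log2 fold change -0.09, edgeR adjusted p = 0.518). Rgs22, a testis-type RGS protein (log2 fold change 0.07, edgeR adjusted p = 0.712), was not called. Neither were Rgs9, the RGS protein of photoreceptors and striatum (-0.19, edgeR adjusted p = 0.435), and its anchor Rgs9bp (-0.27, edgeR adjusted p = 0.0827).

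The other 17 RGS genes and Rgs7bp did not reach the filter. Rgs10 had 15 and 27 counts and Rgs5 had 8 and 15 counts in all in Crebl2 siRNA and Luc siRNA libraries. Of the 10 RGS genes with no count, Rgs8, Rgs18, Rgs20 and Rgs21 have 449 or more unique bases in a row, so that a count of 0 there allows up to 3 counts, or 0.103 to 0.111 CPM, per library. Rgs7, Rgs11, Rgs12, Rgs13, Rgs17 and Rgs19 have at most 189 unique bases and were in effect not measured. Rgs2, a Gq regulator with 2666 bases of its own, had 1 count in the 6 libraries.

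Genes around the G proteins were drawn from 10 lists covering 99 genes, of which 46 were tested. Among them 4 were raised and 13 lowered (4 and 9 without Crebl2 siRNA replicate 2), or 8.70% and 28.3% of those tested, against 18.8% and 20.1% of all tested genes, with a median log2 fold change of -0.08. Receptors contributed 4 lowered and 0 raised of 11 tested (median -0.27). The sphingosine 1-phosphate receptor genes S1pr2 (log2 fold change -0.45, edgeR adjusted p = 5.99e-06) and S1pr1 (-0.29, edgeR adjusted p = 0.000508) fell. S1pr2 was at 67.5, 71.9 and 67.2 CPM in Crebl2 siRNA libraries, against 91.7, 97.1 and 93.8 CPM in Luc siRNA libraries. The bradykinin receptor Bdkrb2 (-0.37, edgeR adjusted p = 0.00528) also fell, whereas Lpar6, a lysophosphatidic acid receptor, was not called (edgeR adjusted p = 0.993). The glucagon receptor Gcgr had 7 counts over the 6 libraries.

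Effectors of cAMP signalling were split. Adcy6, the best counted adenylyl cyclase, fell (log2 fold change -0.16, edgeR adjusted p = 0.018) and Adcy1 rose (0.25, edgeR adjusted p = 0.000592), with 1 further cyclase of 3 tested not called (list median -0.09). Adcy1 was at 221, 217 and 217 CPM in Crebl2 siRNA libraries, against 187, 187 and 177 CPM in Luc siRNA libraries. The protein kinase A regulatory subunits differed in direction. Prkar1a was at 10.5, 10.8 and 9.45 CPM in Crebl2 siRNA libraries, against 5.86, 5.73 and 5.90 CPM in Luc siRNA libraries (log2 fold change 0.81, edgeR adjusted p = 1.00e-05), read from 257 unique bases. Prkar2a was at 75.6, 80.0 and 78.6 CPM in Crebl2 siRNA libraries, against 104, 103 and 101 CPM in Luc siRNA libraries (log2 fold change -0.40, edgeR adjusted p = 1.34e-05), while the catalytic subunits Prkaca (-0.09) and Prkacb (-0.04) did not pass the test (list median over 4 tested, -0.06). Of 6 tested cAMP phosphodiesterases, Pde7a (-0.77, edgeR adjusted p = 0.000105) and Pde4a (-0.76, edgeR adjusted p = 0.00022) fell and Pde3b rose (0.30, edgeR adjusted p = 0.0104), around a list median of 0.02.

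Among 6 tested chaperones and receptor-independent regulators 3 fell and 0 rose (median -0.29), where 20.1% of all tested genes were lowered and 18.8% raised. Ric8a, the chaperone and exchange factor for Gi, Gq and Gna12-type alpha subunits, was at 123, 111 and 106 CPM in Crebl2 siRNA libraries, against 139, 150.1 and 148 CPM in Luc siRNA libraries (log2 fold change -0.36, edgeR adjusted p = 0.000153). Pdcl, which helps to assemble beta with gamma subunits (-0.45, edgeR adjusted p = 0.00668), and the Gi alpha binding Gpsm3 (-0.22, edgeR adjusted p = 0.0259) fell too. Of 6 genes for prenylation of gamma subunits and the steps after it, Icmt, the methyltransferase that caps the lipidated cysteine (-0.43, edgeR adjusted p = 1.59e-05), and Fnta, the alpha subunit shared by the prenyltransferases (-0.14, edgeR adjusted p = 0.0307), fell, with a list median of -0.04.

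Calls were few or absent in the remaining lists. Neither Grk5 nor Grk6, the only tested genes of receptor kinases and arrestins, was called (log2 fold changes 0.04 and 0.07). Plcb3, the only tested phospholipase C beta gene, was not called either (log2 fold change 0.07, edgeR adjusted p = 0.335). The 3 RhoGEFs Arhgef1, Arhgef11 and Arhgef12 were not called (median -0.08). Of other RGS-domain genes, the kinase anchor Akap10 rose (0.20, edgeR adjusted p = 0.0169) and the remaining 3 tested were not called (median -0.05).

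**Figure D4:**
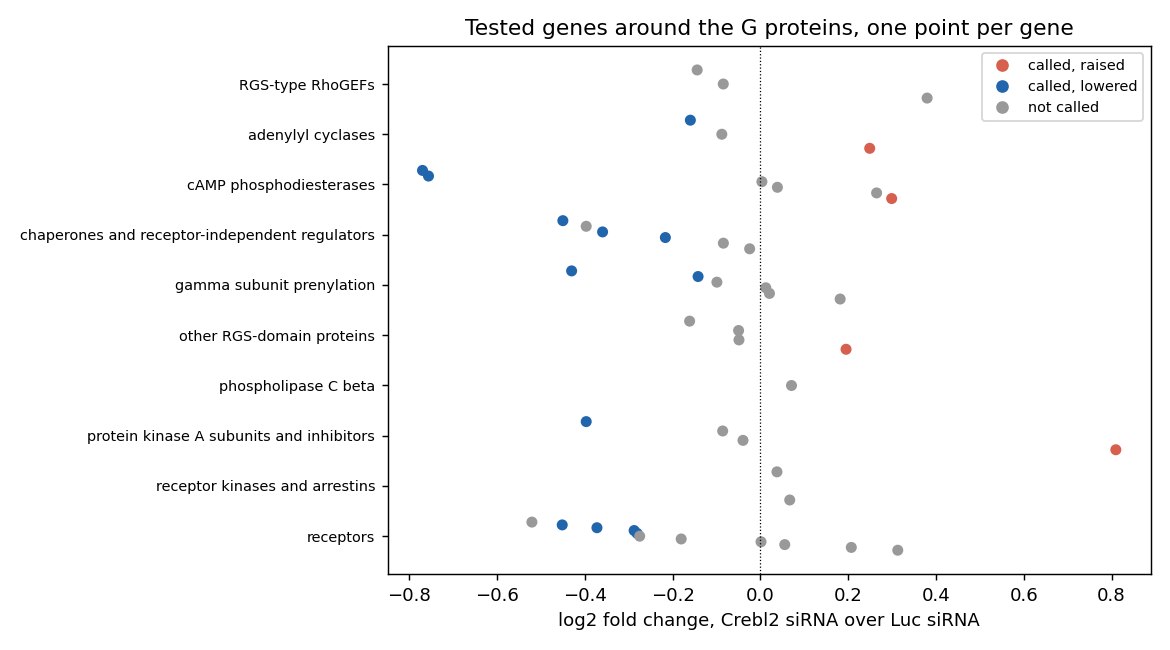
Log2 fold change of Crebl2 siRNA over Luc siRNA for the 46 tested genes of the 10 lists, 1 point per gene, spread vertically within a list for legibility. Red points were called raised (4), blue points called lowered (13) and grey points not called. Prkar1a, at 0.81, is the highest point, and Pde7a, at -0.77, the lowest.

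The called members that hold a 7-base word, GAAATGT, in the 3' UTR of their main transcript are shown next, because an earlier look at these data had found that word more often among lowered genes. Capitals mark the word, and each line gives the bases around one occurrence.
Gng12 first site: aggtaaagatgGAAATGTacaccaaaaaa
Gng12 second site: ttgaaagagggGAAATGTagcagatagtt
Gng2 first site: gcatgtttaaaGAAATGTccccttatgag
Gng2 second site: cctggaggaggGAAATGTataaaaaatga
Gng2 last site: cacccagcttaGAAATGTtaaagcaggaa
Gnaq: gatccactaagGAAATGTtttatcagcta
Gna11: tctgctcagggGAAATGTgtcagggcccc
On GRCm38 the Gng12 lines are chr6:67019322-67019350 and chr6:67020105-67020133 on the plus strand. The Gng2 lines are chr14:19875646-19875674, chr14:19875565-19875593 and chr14:19872635-19872663 on the minus strand. Gnaq is at chr19:16385906-16385934 on the plus strand and Gna11 at chr10:81529214-81529242 on the minus strand. The word, searched on the transcript strand only, was in the 3' UTR of 1818 of 9847 tested genes with one, or 18.5%. Its share was 29.2% where a gene was called lowered, 16.6% where it was not called and 11.9% where it was called raised, and these genes' median 3' UTR lengths were 1387, 997 and 986.5 bases. Among tested members it was in 3 of 5 lowered (Gng12, Gng2 and Gnaq), 4 of 12 uncalled (Gng4, Gng5, Gnb4 and Rgs9) and 1 of 4 raised genes (Gna11). Gnb5, called lowered, and Gnb2, not called, had no 3' UTR that could be searched and are not in these counts. Gnb4, not called, held the word 4 times, against 2 in Gng12 and 3 in Gng2. The median 3' UTR of the searched members was 3248 bases for lowered, 1834.5 for uncalled and 919.5 for raised genes. The siRNA sequences were not used here, and the part of the word in the fall of Gng12 was not tested.

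Promoter windows from RefSeq (GRCm38.p6), from 250 bases before to 50 after each start, were at hand for 41 of the 56 genes, 54 windows in all. The full cAMP response element TGACGTCA, the site of CREB-type factors, was in 0 of these windows, against 1.79% of 32851 windows of all genes. Its core TGACG, which the full element contains, was in 14 of the 54 windows on either strand (25.9%), against 20.8% of all windows. None of the 9 windows of 8 called members held it, and no window was at hand for the called Gng11 and Rgs14. It was in 3 of 9 windows of tested but uncalled members, those of Gnai3, Gnb2 and Gng4, and in 11 of 36 windows of members not tested. With 9 windows in each of the tested sets, these counts are too few to set against the share of all windows.

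Markers of other cell types were measured unevenly. The endothelial genes Cdh5, Pecam1 and Kdr had 3, 1 and 13 counts over the 6 libraries, on at least 691 unique bases each. Of the fibroblast genes, Col1a1 was at 7.63 and 8.86 CPM in Crebl2 siRNA and Luc siRNA cells (log2 fold change -0.22, edgeR adjusted p = 0.146), Col1a2 and Thy1 had 6 and 2 counts in all, and Pdgfrb, with 55 unique bases, had 0. Of the macrophage genes, Cd68 was at 0.767 and 0.703 CPM in Crebl2 siRNA and Luc siRNA cells (log2 fold change 0.12, edgeR adjusted p = 0.808). Ptprc, Adgre1 and Csf1r had 0, 4 and 3 counts, but at most 184 unique bases, so these counts do not show absence. Of the 4 mesothelial markers, Msln (log2 fold change -2.06) and Upk3b (-2.08) were lowered, Krt19 was raised (0.30) and Wt1 could not be read, having 0 unique bases, with summed levels of 140 to 168 CPM in Crebl2 siRNA libraries and 175 to 200 CPM in Luc siRNA libraries. The part of these cell types in the changes of G protein genes was not tested.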

How the data were processed

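RNA of 6 libraries was sequenced with a stranded total RNA kit, per the labels' protocols. Each deposited file lists unscaled whole-number counts for 58611 Ensembl transcripts. Trim Galore, TopHat, HTSeq, mm9 and GRCm38 are named in the submitters' processing notes, with no versions or settings. Rows were joined to GENCODE M21 by identifier (58264 matched; those without a match took up to 0.0497% of counts) and summed per gene. All genes were tested with edgeR 4.0.16 (R 4.3.3) by the quasi-likelihood test, two-sided, with TMM scaling, filterByExpr and p-values adjusted by Benjamini-Hochberg (threshold 0.05). Each SE is the log2 fold change divided by the root of its F statistic, in size. With separate cultures not stated, p-values reflect only how these libraries vary, which may be technical. Alternatives used DESeq2 1.42.0 and limma-voom 3.58.1. The procedure was tested on simulated data in which 200 genes changed, far fewer than were called here. That setting does not test scaling or error rates where a large part of the genes change. Unique bases are exonic bases in no other deposited row, and levels per length need at least 200. The members, the lists, the rule for named genes (all members, and up to 4 called genes per direction and list with the smallest p) and the 3' UTR word were chosen with earlier results of these data known. So was the comparison of Gng12 with the other gamma genes. A floor of 3 counts covers counting error only. Some genes of the lists are not reported here.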

Additional observations from a re-analysis of the deposited data

How the results depend on the processing

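Every alternative kept the direction and the call of Gng12, whose log2 fold change ran from -1.50 to -1.42 over 14 settings, and from -1.50 to -1.45 with 1 library left out. The difference of Gng12 from the summed other gamma genes ran from -1.23 to -1.16 with 1 library left out, where the smallest possible exact p is 0.2. It was -1.19 per unique kilobase and -1.88 against the median of the other tested gamma genes, among which low counted genes weigh as much as Gng11. With 1 library left out, 4 members were raised each time and 4 to 8 were lowered, 2 to 5 genes of the surrounding lists were raised and 9 to 14 lowered, and 3639 to 4640 of all genes were called. Without Luc siRNA replicate 2, 2 list genes were raised instead of 4. The same 10 members were called by DESeq2, limma-voom, DESeq2 size factors, the 1 CPM filter and the main transcript row. Gna12 was lost and Gna15 gained with library size alone, and Gnai1 was gained with no filter. Of 319 recomputed member fold changes, 9 lost their call, all of Gna12 or Gnb5, and 4 gained one (Gna15, Gnai2, Gngt2 and Rgs9bp). The cause was not tested. Same-numbered libraries did not deviate together (correlations -0.13, -0.04 and -0.08), so the replicate number was not taken as a pairing. With the replicate block 4 members were raised and 5 lowered, and Gna12 was no longer called (edgeR adjusted p = 0.0792), while Gng12 changed by -1.46. Members measured through few unique bases or few counts limit what can be seen, Gnb1, Gnas and most RGS genes above all.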
